A study of Mus musculus with 4 samples.

Results

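Costimulatory and adhesion ligands are the surface proteins through which a follicular B (FOB) cell holds and signals to the T cell that helps it. The group described here is 10 genes, taken by name from the 55401 genes of the deposited count table: the B7 ligands Cd80, Cd86 and Icosl, the adhesion ligand Icam1, the activation molecules Cd83 and Cd69, and Slamf1, Slamf6, Cd48 and Cd84 of the signaling lymphocytic activation molecule (SLAM) family. All 10 were found under 1 gene identifier each and all 10 passed the filter on low counts. Their rows in the deposited table of alternative splicing (AS) events were looked up by the same symbols.

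When a B cell presents antigen, a cognate T cell recognizes it and the pair forms a stable contact. CD80 and CD86 bind CD28 on the T cell, ICOSL binds ICOS on follicular helper T cells, and ICAM1 holds the contact through the integrin LFA-1. SLAM family receptors bind partners of the same family across the contact, mostly the same molecule on the other cell, and signal through the adaptor SAP. A resting FOB cell carries several of these molecules at a low level and raises others, such as CD86 and CD69, once it is activated.

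The RNA came from FOB cells of the spleen, purified by FACS as B220+CD93-CD23highCD21low cells from C57BL/6 mice aged 7 weeks. The 2 Hnrnpf bKO libraries came from Hnrnpf fl/fl mice in which B cell-specific Cre recombinase deletes the floxed gene of the RNA-binding protein hnRNP F. The study's methods give the WT mice as Hnrnpf fl/fl without Cre, so both genotypes share the floxed alleles and the controls carry no Cre, while the sample labels say only WT. The effect of hnRNP F loss and that of carrying Cre therefore cannot be told apart in these libraries. The sources used here do not say whether cells of several mice were pooled. The p-values set the genotype difference against the spread within genotype of these 4 samples, which may not be the spread between mice.

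The 4 libraries held 15698567 to 18908963 counted reads, and both replicate pairs differed by more than sampling noise, with a chi-square per degree of freedom of 4.30 for WT and 3.87 for Hnrnpf bKO. Hnrnpf, the targeted gene, had 5780 and 6634 counts per WT library against 1167 and 1194 per Hnrnpf bKO library, 20.1% of the WT level. The B cell genes Ighm and Cd79a were abundant, as was Fcer2a, which encodes the sorting marker CD23. Their WT means were 2482, 1497 and 413 in fragments per kilobase scaled to library size (FPKM).

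Of the 10 ligands, the mRNA of Cd69 was higher in Hnrnpf bKO FOB cells and that of Slamf1, Cd48 and Cd84 was lower, while the B7 ligands, Icam1, Cd83 and Slamf6 did not pass the test. Cd69 was 1.42-fold higher, and Slamf1, Cd48 and Cd84 stood at 73.0%, 84.0% and 79.8% of the WT level. The threshold for a call was a Benjamini-Hochberg adjusted p of 0.05 or less over all 14123 genes tested, from the quasi-likelihood test of edgeR. By this rule 1 of the 10 ligands was called higher, beside 4.15% of all genes tested (586 genes), and 3 of the 10 were called lower, beside 2.83% (399 genes). At the study's added threshold of a fold change of at least 2, which 0.899% of all genes tested passed, edgeR called 0 of the 10, and no ligand beyond these 4 had an unadjusted p of at most 0.05 with edgeR or with DESeq2. On log2(FPKM + 0.1), limma called 29 genes higher and 16 lower in all and 0 of the 10 ligands, with 4 at an unadjusted p of at most 0.05, 1 higher and 3 lower. The median log2 fold change of the 10 was −0.11, against −0.0023 over all genes tested.

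A coarser description is whether both Hnrnpf bKO libraries lay on 1 side of both WT libraries. Both lay above WT for 2 of the 10 ligands, Cd69 and Slamf6, where 25.3% of all genes tested did so. Both lay below WT for 5 of the 10, namely Cd80, Icosl, Slamf1, Cd48 and Cd84, where 24.8% of all genes tested did so. For Cd86, Icam1 and Cd83 the genotypes overlapped.

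**Figure D1:**
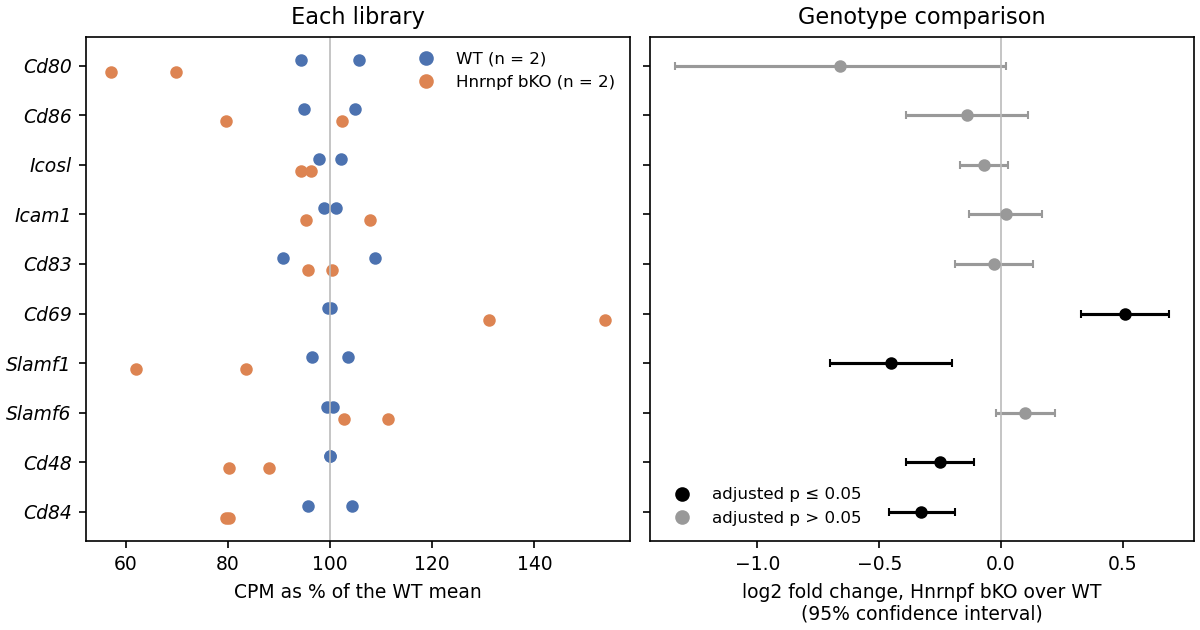
Left, counts scaled to library size (CPM) of each ligand in each of the 4 libraries as a percentage of the WT mean; right, the log2 fold change of Hnrnpf bKO over WT with its 95% confidence interval, in black for an adjusted p of at most 0.05. Cd69 lies to the right of 0 and Slamf1, Cd48 and Cd84 to the left with intervals that exclude 0, and Cd80 has the widest interval of the 10.

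Levels were compared between genes in FPKM, which the authors divided by gene length. Mean FPKM in WT FOB cells was 124 for Icosl, 92.1 for Cd48 and 88.9 for Cd83, the 3 most abundant ligands. Icam1 (20.6), Cd84 (18.4) and Slamf6 (17.3) formed a middle range, and Cd86 (8.62), Cd69 (7.88) and Slamf1 (7.88) were lower. Cd80 was far below these at 0.77 FPKM, which ranked 12648th among all genes of the table, where Icosl ranked 305th. The order of the resting cells was thus led by the ICOS ligand and not by the classical B7 pair.

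Neighbours in this order could not be separated everywhere. In WT the libraries of Cd48 and Cd83 overlapped, as did those of Cd69 and Slamf1. In Hnrnpf bKO the mean FPKM was 118 for Icosl, 86.4 for Cd83, 76.7 for Cd48, 20.7 for Icam1, 18.4 for Slamf6, 14.6 for Cd84, 11.2 for Cd69, 7.78 for Cd86, 5.69 for Slamf1 and 0.48 for Cd80. Cd69 stood above Slamf1 without overlap in Hnrnpf bKO, at 12.10 and 10.22 against 4.86 and 6.51 FPKM, where in WT both were near 7.88.

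**Figure D2:**
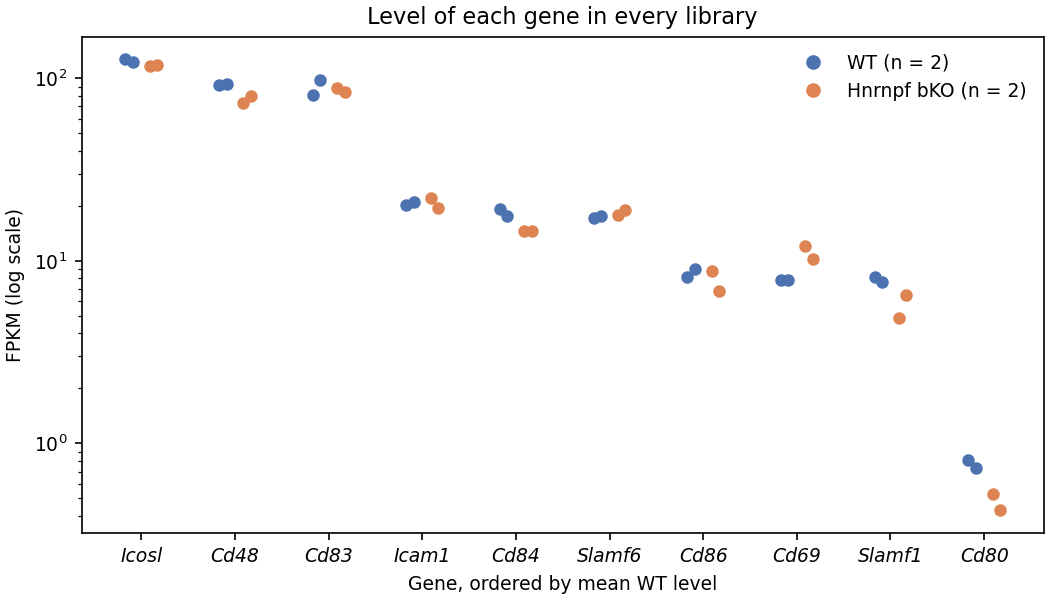
FPKM of the 10 ligands in each library on a log scale, ordered by their mean in WT, with 2 WT and 2 Hnrnpf bKO libraries per gene. Icosl, Cd48 and Cd83 lie near 100 FPKM and Cd80 below 1, and the separation between genotypes is visible for Cd69, Slamf1, Cd48 and Cd84 and also for Cd80, which was not called, and is small beside most differences between genes.

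Cd80 (ENSMUSG00000075122, GRCm38 chromosome 16 from 38455561 to 38496335, plus strand) encodes the B7 ligand that B cells acquire mainly after activation and on memory cells. It had 49 and 51 counts per WT library against 31 and 29 per Hnrnpf bKO library, or 3.0 and 2.68 against 1.98 and 1.62 in counts scaled to library size (CPM). Each knockout library was below each WT library. Means were 2.84 ± 0.223 CPM for WT against 1.80 ± 0.254 CPM for the knockouts (SD, n = 2 each), and the log2 fold change was −0.66 with a standard error of 0.32 and an adjusted p of 0.264 from edgeR. At a mean of 40.0 counts the 95% interval ran from 0.395-fold to 1.02-fold and so just included no change.

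Cd86 (ENSMUSG00000022901, chromosome 16 from 36603869 to 36666081, minus strand), the other CD28 ligand and the one that rises first on an activated B cell, had 489 and 628 counts per WT library against 504 and 449 per Hnrnpf bKO library. These were 29.9 and 33.0 against 32.2 and 25.1 CPM, so the genotypes overlapped and the second Hnrnpf bKO library was the lowest. The log2 fold change was −0.14 (SE 0.12, 95% interval 0.762-fold to 1.08-fold, edgeR adjusted p = 0.542). Without that library the value was 0.03. Cd86 exceeded Cd80 in FPKM by a ratio of 10.1 and 12.5 in the WT pair against 16.4 and 15.7 in the Hnrnpf bKO pair.

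Icosl (ENSMUSG00000000732, chromosome 10 from 78069302 to 78083913, plus strand) encodes the ligand of ICOS, which follicular helper T cells need. It had 9590 and 10666 counts per WT library against 8483 and 9882 per Hnrnpf bKO library, or 586 and 561 against 541 and 552 CPM. The knockout pair was below the WT pair, by a small margin. Means were 574 ± 18.2 CPM for WT against 546 ± 7.42 CPM for the knockouts (log2 fold change −0.07, standard error 0.05, edgeR adjusted p = 0.464). The 95% interval of 0.886-fold to 1.02-fold is narrow at this depth, so a fall to below 0.886 of the WT level lies outside it. The 3 B7 ligands summed to 619 and 596 CPM in WT and to 575 and 578 CPM in Hnrnpf bKO, and Icosl made up nearly all of this.

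Icam1 (ENSMUSG00000037405, chromosome 9 from 21015985 to 21028817, plus strand), the counter-ligand of LFA-1, had 1447 and 1721 counts per WT library against 1513 and 1527 per Hnrnpf bKO library. At 88.5 and 90.5 against 96.5 and 85.2 CPM, the 2 Hnrnpf bKO libraries lay on either side of WT. The log2 fold change was 0.02 (SE 0.07, 95% interval 0.914-fold to 1.13-fold, edgeR adjusted p = 0.909). Icam1 shares 511 exonic bases with Gm47079 on the opposite strand, which had between 0 and 4 counts per library.

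Cd83 (ENSMUSG00000015396, chromosome 13 from 43784775 to 43803132, plus strand) encodes a membrane protein that opposes the ubiquitin ligase MARCH1 and so keeps CD86 and MHC class II on the surface. It had 3388 and 4727 counts per WT library against 3583 and 3909 per Hnrnpf bKO library, or 207 and 248 against 229 and 218 CPM. The Hnrnpf bKO libraries both lay between the WT libraries. The log2 fold change was −0.03 (SE 0.07, 95% interval 0.878-fold to 1.09-fold, edgeR adjusted p = 0.870).

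Cd69 (ENSMUSG00000030156, chromosome 6 from 129267325 to 129275436, minus strand) encodes an early activation marker that binds the sphingosine-1-phosphate receptor S1PR1 and removes it from the surface. It had 839 and 971 counts per WT library against 1236 and 1202 per Hnrnpf bKO library, or 51.3 and 51.0 against 78.8 and 67.1 CPM. Both Hnrnpf bKO libraries were above both WT libraries, and the WT pair was almost equal. The mean rose from 51.2 ± 0.184 to 73.0 ± 8.31 CPM (SD, n = 2 each), a log2 fold change of 0.51 with a standard error of 0.08 and a 95% interval of 0.33 to 0.69 (edgeR adjusted p = 0.00294). S1pr1 had 5056 and 6432 counts per WT library against 3885 and 5017 per Hnrnpf bKO library, and its mRNA fell (log2 fold change −0.29, edgeR adjusted p = 0.0156).

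Cd69 lies on the chromosome of the targeted gene, 11.3 Mb from Hnrnpf. Between the 2 genes 116 genes were tested, of which 14 were called, 9 higher and 5 lower. This was 12.1% of them, against 6.97% of all genes tested, and the part of the shared chromosome in the rise of Cd69 was not tested.

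Cd69 is also an early response gene, so its rise was set beside 15 immediate early genes of activation and tissue handling. Myc rose by 0.32 and Btg2 by 0.34 on the log2 scale, whereas Fos (−1.49), Junb (−0.47), Ier2 (−0.49) and Zfp36 (−0.30) fell. Thus 2 of 15 were called higher (13.3%) and 4 of 15 lower (26.7%), beside 4.15% and 2.83% of all genes tested. The median log2 fold change of the 15 was −0.21. At an unadjusted p of at most 0.05 with edgeR, 3 were higher and 7 lower. The summed level of the 15 was 1690 and 1629 CPM in the WT pair and 1592 and 1627 CPM in the Hnrnpf bKO pair. Fos had 231 and 131 counts per WT library against 38 and 88 per Hnrnpf bKO library, a wide spread within each genotype. The part of handling or activation before lysis in the values of Cd69 was not tested.

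The 4 SLAM ligands are neighbours in the SLAM gene cluster of chromosome 1, where Cd48, Slamf1, Cd84 and Slamf6 follow each other on the plus strand. Their upstream sequences are shown as a description, and the part of these sequences in the values of the 4 genes was not tested. Each is the 250 bases before the gene's RefSeq start, in GRCm38.p6 and read 5′ to 3′ on the plus strand. Capitals mark every copy of GGAAG, the core of many ETS factor sites, and of TGANTCA, the AP-1 element, on either strand.

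Cd48, chr1:171681742-171681991: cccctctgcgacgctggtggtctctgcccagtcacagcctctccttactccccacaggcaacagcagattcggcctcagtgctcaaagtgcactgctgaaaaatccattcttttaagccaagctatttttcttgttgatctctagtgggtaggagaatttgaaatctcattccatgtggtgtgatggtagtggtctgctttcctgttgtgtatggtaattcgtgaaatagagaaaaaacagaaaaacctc
Slamf1, chr1:171766882-171767131: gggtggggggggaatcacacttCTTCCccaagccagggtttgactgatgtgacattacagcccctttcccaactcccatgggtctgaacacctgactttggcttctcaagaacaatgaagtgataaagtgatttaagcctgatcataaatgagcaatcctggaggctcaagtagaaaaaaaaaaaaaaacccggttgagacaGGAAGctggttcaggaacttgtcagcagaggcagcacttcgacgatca
Cd84, chr1:171839447-171839696: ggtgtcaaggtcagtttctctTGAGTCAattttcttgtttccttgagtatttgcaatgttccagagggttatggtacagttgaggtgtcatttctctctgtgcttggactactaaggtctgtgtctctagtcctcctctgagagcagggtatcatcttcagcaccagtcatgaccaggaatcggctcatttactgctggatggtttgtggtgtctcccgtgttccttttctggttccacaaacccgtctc
Slamf6, chr1:171917212-171917461: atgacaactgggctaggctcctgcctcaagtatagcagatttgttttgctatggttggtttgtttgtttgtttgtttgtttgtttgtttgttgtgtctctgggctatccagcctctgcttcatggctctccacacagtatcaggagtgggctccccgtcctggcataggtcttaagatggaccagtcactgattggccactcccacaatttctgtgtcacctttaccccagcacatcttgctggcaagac

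The Slamf1 window held 2 copies of GGAAG and the Cd84 window held 1 copy of TGANTCA, while the windows of Cd48 and Slamf6 held neither. GGAAG was present in 64.1% of the 32851 mouse promoter windows of this length and TGANTCA in 6.75%. Neither TATAAA (12.4% of windows) nor GGGCGG (32.7%), the TATA and GC box letters, was found in any of the 4. The window of Slamf1 reaches 5 bases past the gene start of the deposited table, and that of Slamf6 ends 53 bases before it. Of the 10 ligands, 7 had a RefSeq window. Among the other 3 with one, Cd80 held 1 copy of TGANTCA, Icosl held 1 of GGGCGG, and Icam1 held 1 each of GGGCGG and GGAAG. These letters are a description of the windows, and binding of a factor was not measured.

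Cd48 (ENSMUSG00000015355, from 171682009 to 171705258) encodes a lipid-anchored ligand of CD2 and of the SLAM receptor CD244. It had 1783 and 2080 counts per WT library against 1370 and 1718 per Hnrnpf bKO library, or 109 and 109 against 87.4 and 95.9 CPM. Both Hnrnpf bKO libraries were below the WT pair, which was nearly equal. The mean fell from 109 ± 0.221 to 91.7 ± 6.02 CPM (log2 fold change −0.25, standard error 0.06, edgeR adjusted p = 0.0302). The call is a narrow one, with an adjusted p of 0.0814 from DESeq2 and, in edgeR, 0.0635 without the first WT library, 0.0746 without the second and 0.223 without the first Hnrnpf bKO library.

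Slamf1 (ENSMUSG00000015316, from 171767127 to 171801184) encodes CD150, a self-ligand. It had 820 and 888 counts per WT library against 470 and 724 per Hnrnpf bKO library, or 50.1 and 46.7 against 30.0 and 40.4 CPM. Both Hnrnpf bKO libraries were below WT, and the first was much the lower. The mean fell from 48.4 ± 2.45 to 35.2 ± 7.38 CPM, a log2 fold change of −0.45 with a standard error of 0.12 (edgeR adjusted p = 0.0320). The size depended on that library, with −0.26 (adjusted p = 0.223) without it and −0.69 without the second.

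Cd84 (ENSMUSG00000038147, from 171839697 to 171890718) encodes another self-ligand, with a part in sustained contacts between B cells and T cells. It had 1965 and 2097 counts per WT library against 1434 and 1652 per Hnrnpf bKO library, or 120 and 110 against 91.5 and 92.2 CPM. Both Hnrnpf bKO libraries were below WT and nearly equal to each other. The mean fell from 115 ± 7.02 to 91.8 ± 0.525 CPM (log2 fold change −0.33, standard error 0.06, 95% interval −0.46 to −0.19, edgeR adjusted p = 0.00732). This call held without any 1 of the 4 libraries, at log2 fold changes between −0.38 and −0.26.

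Slamf6 (ENSMUSG00000015314, from 171917515 to 171953170) encodes Ly108, a self-ligand that shares the adaptor SAP. It had 3036 and 3581 counts per WT library against 3009 and 3725 per Hnrnpf bKO library, or 186 and 188 against 192 and 208 CPM. Here both Hnrnpf bKO libraries were above WT, the opposite side from its 3 neighbours. The log2 fold change was 0.10 (SE 0.06, 95% interval 0.984-fold to 1.16-fold, edgeR adjusted p = 0.358), so a fall as large as that of Cd84 lies outside its interval. The ratio of Slamf6 to Slamf1 in FPKM was 2.10 and 2.29 in the WT pair against 3.64 and 2.92 in the Hnrnpf bKO pair, and the 4 SLAM ligands summed to 465 and 455 CPM in the WT pair and 401 and 436 CPM in the Hnrnpf bKO pair.

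The SLAM cluster, from the first base of Cd244a to the last of Slamf6, spans 394 kb of chromosome 1 from 171559193 to 171953170. It held 13 tested genes, of which 7 belong to the SLAM family. Of the 13, 3 were called, all lower, beside 2.83% of all genes tested. These 3 are ligands already counted above. Ly9, the most abundant of the other SLAM genes, had 3244 and 3810 counts per WT library against 2732 and 3325 per Hnrnpf bKO library (log2 fold change −0.15, edgeR adjusted p = 0.133). Cd244a, the receptor for CD48, had 112 and 105 counts against 63 and 54 (−0.82, adjusted p = 0.0632), and Slamf7 had 1267 and 1559 against 1284 and 1438 (0.02, adjusted p = 0.883). Slamf9, outside the span, had 33 and 32 counts per WT library against 10 and 24 per Hnrnpf bKO library (−0.88, adjusted p = 0.278). Of these 4 SLAM genes 0 were called with edgeR or DESeq2, with 2 at an unadjusted p of at most 0.05 with either. Ly9 lies inside Cd244a on the opposite strand with 0 shared exonic bases. The other 6 tested genes of the span, among them Gm10521 and Gm37010, had 0 calls with edgeR or DESeq2, with 2 at an unadjusted p of at most 0.05 with edgeR and 0 with DESeq2. Gm37010 overlaps Cd48 on the same strand without shared exonic bases, and Gm37065 overlaps Slamf6 on the opposite strand.

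**Figure D3:**
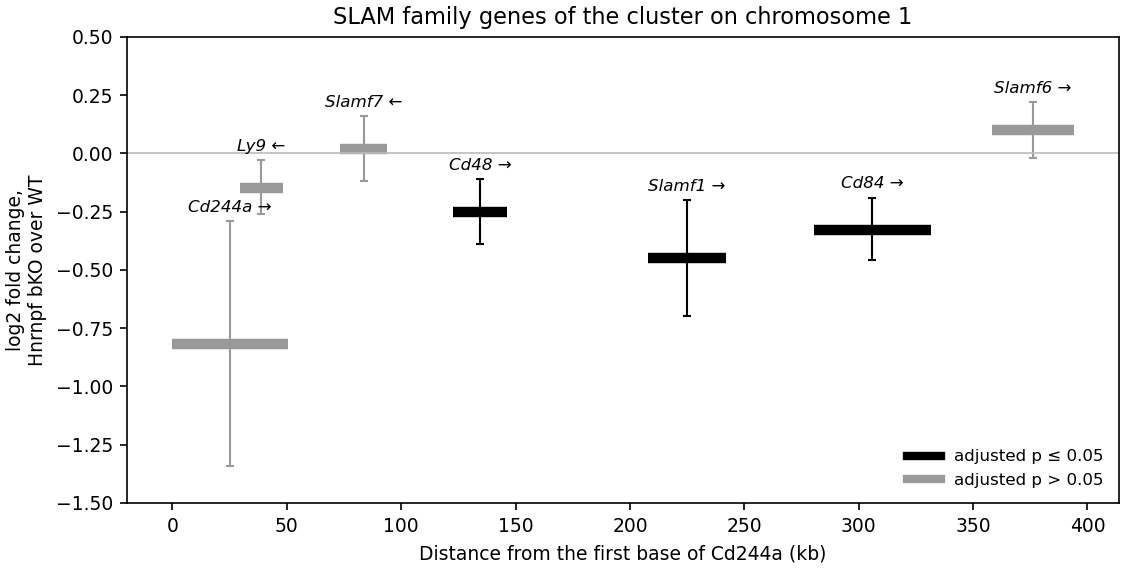
log2 fold change of Hnrnpf bKO over WT for the 7 tested SLAM family genes of the chromosome 1 cluster, drawn at their positions in kb from the first base of Cd244a, with 95% confidence intervals and black for an adjusted p of at most 0.05. Cd48, Slamf1 and Cd84 lie side by side below 0, between Slamf7 and Slamf6, whose values were 0.02 and 0.10.

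SLAM receptors signal through SAP family adaptors, SRC family kinases and the phosphatases SHIP1 and SHP1. Inpp5d, which encodes SHIP1, fell (log2 fold change −0.31, edgeR adjusted p = 0.0134), as did Ptpn6, which encodes SHP1 and had 17875 and 21630 counts per WT library against 14922 and 16653 per Hnrnpf bKO library (−0.25, adjusted p = 0.00695). In this list 0 of 5 tested genes were called higher and 2 lower, beside 4.15% and 2.83% of all genes tested. Fyn (−0.07) and Ptpn11 (−0.02) did not pass the test, and the adaptor gene Sh2d1a had 6 and 6 counts per WT library against 11 and 7 per Hnrnpf bKO library, too few to be tested.

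The other genes of the B cell to T cell contact were taken from a list of 66, of which 55 were tested. Of these, 4 were called higher (7.27%) and 6 lower (10.9%) in Hnrnpf bKO FOB cells. Over all genes tested 4.15% were called higher and 2.83% lower, which is the reference for each group below. The median log2 fold change of the 55 was −0.07. At a fold change of at least 2, edgeR called 0 of the 55, while 17 had an unadjusted p of at most 0.05 with edgeR and 16 with DESeq2.

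Among the B7 and related ligands, Cd274, the inhibitory ligand PD-L1, had 1104 and 1328 counts per WT library against 777 and 1011 per Hnrnpf bKO library and fell (log2 fold change −0.37, edgeR adjusted p = 0.0134). Btla, an inhibitory receptor that binds HVEM and the most abundant gene of this group, rose by 0.24 (adjusted p = 0.0421). The 2 calls were 1 in each direction among 8 tested genes. Pdcd1lg2 (−0.11), Cd276 (−0.56), Vsir (0.32), Tnfrsf14 (0.03), Btn2a2 (−1.07) and Btnl2 (−0.01) did not pass the test.

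In the TNF family group 1 of 4 tested genes was called. Cd27, a receptor for CD70, had 404 and 429 counts per WT library against 193 and 245 per Hnrnpf bKO library. This was 55.2% of the WT level (log2 fold change −0.86, edgeR adjusted p = 0.000826). The genotypes were well separated. Cd40, the receptor for CD40 ligand, had 2352 and 2567 counts per WT library against 2016 and 2427 per Hnrnpf bKO library (−0.08, adjusted p = 0.510). Cd70 had 0 counts in all 4 libraries.

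Among 20 tested adhesion genes, 2 rose and 1 fell. Itgal, the alpha chain of LFA-1 and receptor of ICAM1, fell from 6205 and 6906 counts per WT library to 4745 and 5456 counts per knockout library (log2 fold change −0.29, edgeR adjusted p = 0.00373), while its beta chain Itgb2 stood at −0.15 (adjusted p = 0.125). Cd37, an abundant tetraspanin, rose by 0.29 (adjusted p = 0.00448). Icam2, the second LFA-1 ligand, stood at −0.07, Cd2 at 0.02 and Pecam1 at −0.20 (adjusted p = 0.0509). The LFA-1 axis thus had 1 chain lower and both ICAM ligands not passing the test.

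Among 8 genes of integrin activation, 1 was called. Rasgrp2, which activates RAP1, rose by 0.33 on the log2 scale (edgeR adjusted p = 0.00140). Tln1, the most abundant of the group, stood at −0.08, and Rap1a, Rap1b, Rassf5, Apbb1ip, Fermt3 and Cytip lay between −0.14 and 0.11.

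Among 6 partners and regulators of CD83, CD86, CD69 and ICOSL, S1pr1 was the 1 gene called. Marchf1, the ligase that CD83 opposes, stood at −0.08, and Adam10, the protease that sheds ICOSL, at −0.05. Klf2, the most abundant of the group and an activator of S1pr1, stood at −0.04.

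**Figure D4:**
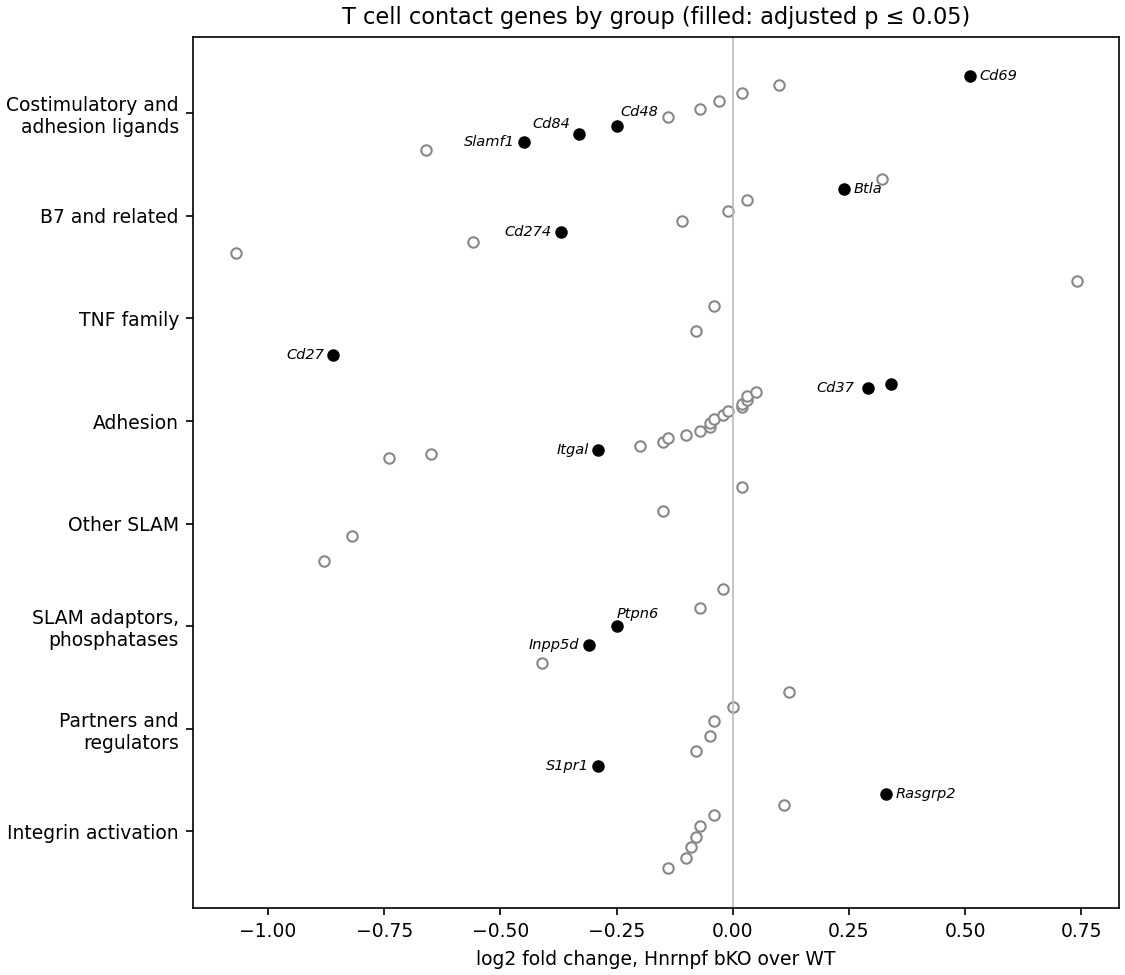
log2 fold change of Hnrnpf bKO over WT for the 10 ligands in the top row and for 55 other genes of the B cell to T cell contact in 7 groups below, filled for an adjusted p of at most 0.05, with the names of those described in the text, and open otherwise. Points within a group are spread vertically so that they can be seen, and the called genes lie between Cd27 at −0.86 and Cd69 at 0.51.

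T cells and myeloid cells also express several of the ligands, among them Cd48, Cd84, Slamf1 and Cd69, and in bulk RNA fewer cells of a type and less RNA per cell cannot be told apart. The 12 T cell markers summed to 48.4 and 69.3 CPM in the WT pair and 44.3 and 59.6 CPM in the Hnrnpf bKO pair, which overlap. Of 11 tested, 0 were called with edgeR or DESeq2, with 1 at an unadjusted p of at most 0.05 with edgeR and 0 with DESeq2. The log2 fold change was negative for 9 of the 11, the direction of Cd48, Cd84 and Slamf1, with a median of −0.27, and ranged from −0.70 for Cd8b1 to 0.27 for Cd3g. Both knockout libraries were below WT for Cd8b1, Cd4 (−0.50) and Cd3d (−0.29), while Trac, the most abundant, had 83 and 113 counts per WT library against 82 and 92 per Hnrnpf bKO library (−0.09).

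The 8 myeloid markers summed to 123 and 125 CPM in the WT pair and 143 and 152 CPM in the Hnrnpf bKO pair, and most of this was Cst3. S100a8 rose from 30 and 48 counts to 81 and 134 (log2 fold change 1.53), and S100a9 from 52 and 90 to 119 and 223 (1.34). Thus 2 of 7 tested were called higher and 0 lower, beside 4.15% and 2.83% of all genes tested. Cd14 had 3 and 0 counts per WT library against 1 and 0 per Hnrnpf bKO library, too few to be tested. The other 5 tested were not called, with Lyz2 at 0.56, Itgam at 0.71 and Cst3 at 0.15 and with Csf1r at −0.21 and Adgre1 at −0.86. Over the 7 tested the median was 0.56, and 3 were higher and 1 lower at an unadjusted p of at most 0.05 with edgeR. Among 4 tested dendritic cell markers 1 was called higher, beside the same 4.15% of all genes tested. This was Flt3 (1.12), at 140 and 205 counts per WT library and 277 and 436 counts per knockout library. The list summed to 13.7 and 17.1 CPM in the WT pair and 23.3 and 29.6 CPM in the Hnrnpf bKO pair. Flt3 carried this difference. The 5 markers without it summed to 5.14 and 6.36 CPM in the WT pair and 5.61 and 5.25 CPM in the Hnrnpf bKO pair, which overlap. Itgax, at 46 and 67 counts against 43 and 28, stood at −0.57 without a call. Zbtb46 (0.38) and Siglech (0.56), at few counts, lay on the other side, also without a call. The median log2 fold change of the 4 tested was 0.47. Clec9a, a defining marker, had at most 6 counts per library. The part of these cells in the values of the ligands was not tested.

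The level of a gene's RNA does not show how it was spliced, so the 10 ligands were looked up among the significant AS events that the authors deposited, 1556 events in 1173 genes. No ligand had a row. Of the 9875 genes that averaged 100 counts or more, 10.6% had at least 1 row, and 9 of the 10 ligands, all but Cd80, are among them. Of the 45 other contact genes at this depth, 4 had a row (8.89%), among them Cd40 with 5 events and Cd47 and Itgb2 with 1 skipped exon each. The 10 ligands have between 2 and 7 annotated transcripts and up to 9 exons in a transcript, so all are multi-exon genes. The table holds significant events alone, so absence from it does not show that splicing was equal between genotypes.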

How the data were processed

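Poly(A) mRNA of sorted FOB cells from 2 WT and 2 Hnrnpf bKO samples was sequenced, and samples were grouped by their titles. Per the labels and the methods, the authors checked reads with FastQC 0.10.1, trimmed them with Cutadapt 1.9.1, aligned them to GRCm38 with HISAT2 2.0.1 and counted them per gene with HTSeq 0.6.1. The library kit does not mark strand, and the strand setting and annotation release are not given in the sources used here. The deposited counts are whole numbers without normalization. The deposited FPKM values were made by the authors from these counts, gene length and library total. The authors' splicing table, made with rMATS, holds an FDR, which is an adjusted p-value, and an inclusion level difference, a score between −1 and 1. Only its gene names and event types were used as results, its FDR and difference only as thresholds for an alternative count, and their values are not printed.

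Counts were tested with edgeR 4.0.16 in R 4.3.3 (TMM, filterByExpr, quasi-likelihood F test, Benjamini-Hochberg adjustment over 14123 genes) on all 4 libraries without covariates. CPM use TMM-scaled library totals. DESeq2, which the study used, was an alternative (version 1.42.0), beside RLE size factors, other filters on low counts, limma 3.58.1 on log2(FPKM + 0.1) and log2(FPKM + 1), the replicate number as a block, a fold change threshold, and each library left out. The script was tested on simulated data. The biological coefficient of variation was 5.90%, and depth gives the intervals printed. The smallest two-sided p of an exact permutation test of 2 against 2 libraries is 0.333.

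The members, contact list and marker lists were chosen with earlier results of these data known. Genes named were the 10 members, Hnrnpf, Cd40, list genes that passed the test and the most abundant gene of each list. Some genes under this rule are not reported here. Other list genes are named by group membership, and were chosen after their values were seen. Gene positions are those of the deposited table, equal to GENCODE M21. Upstream sequences come from RefSeq (GRCm38.p6). Tables were made with Python 3.11.15 and pandas 2.3.3, and figures with matplotlib 3.10.9.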

Additional observations from a re-analysis of the deposited data

How the results depend on the processing

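Over 110 recomputed log2 fold changes of the 10 ligands, 91 kept their direction and side of the threshold, 15 kept their direction but lost the call, and 4 reversed. Only the 4 called ligands had a call to lose. Of 11 settings for each gene, Cd48 lost its call in 7, Slamf1 in 4, and Cd69 and Cd84 in 2 each. The reversed values belong to genes without a call: with 1 library left out, Cd86 ranged from −0.33 to 0.03 (without the second Hnrnpf bKO library), Icam1 from −0.07 (without the first) to 0.11, and Cd83 from −0.15 to 0.11 (without the second WT library), with 0.004 without the second Hnrnpf bKO library. With 1 library left out, the remaining library of its group is assumed to vary like the other group. Genes then called higher numbered 403 to 531 of all genes (main 586), 1 to 1 of the ligands (Cd69) and 3 to 5 of the other contact genes, and genes called lower numbered 276 to 333, 1 to 3 and 5 to 6. Without the first Hnrnpf bKO library only Cd84 stayed lower among the ligands.

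The same replicate numbers in both genotypes marked no shared litter or day in the labels, and deviations of same-numbered libraries had a correlation of −0.0831 over 9875 genes, so they were not taken as pairs. With the replicate block, 378 genes were higher and 234 lower, and among the ligands 1 was lower, Slamf1 and Cd48 having adjusted p of 0.0549 and 0.069. DESeq2 called 370 and 251 genes. Without a filter on low counts 636 genes were lower. Limma on log2(FPKM + 0.1) called 29 and 16 genes and on log2(FPKM + 1) 26 and 15. Both called 0 ligands and 0 other contact genes in either direction, though 4 ligands had an unadjusted p of at most 0.05 in both, and the adjusted p of Cd69 was 0.120 and 0.123. A fold change of at least 2 left 91 and 36 genes, 0 ligands and 0 other contact genes. RLE size factors changed no call among the ligands. The splicing lookup stayed at 0 rows under both stricter thresholds. Cd80, the ligand with the fewest counts, had the widest standard error, 0.32.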

Other observations

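Genes of B cell subsets outside the contact lists also moved. Over all genes tested 4.15% were called higher and 2.83% lower, which is the reference for each list of this section. Of 8 tested marginal zone B cell markers, 2 rose and 4 fell in Hnrnpf bKO FOB cells. Cr2, the complement receptor CD21 and one of the sorting markers, had 17733 and 17145 counts per WT library against 11268 and 12796 per Hnrnpf bKO library (log2 fold change −0.47, edgeR adjusted p = 0.00140). S1pr3 (−0.46), Dtx1 (−0.23), a Notch target, and Cd36 (−0.47) fell with it, while Cd1d1 (0.34) and Plac8 (0.26) rose. The 8 markers summed to 2651 and 2374 CPM in the WT pair and 2280 and 2326 CPM in the Hnrnpf bKO pair.

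Of 10 follicular and B cell identity genes, 2 rose and 3 fell. Fcer2a (0.22), which encodes the sorting marker CD23, and Ighd (0.28) rose, and Ms4a1 (−0.29), which encodes CD20, and Pax5 (−0.20) were among those that fell. Ighm, the most abundant, stood at 0.03. Of 3 tested transitional B cell markers, Cd93, the marker against which the cells were sorted, rose from 138 and 222 counts to 261 and 354 (0.85, adjusted p = 0.00661), while Cd24a, the most abundant, stood at −0.11.

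Of 6 germinal center markers, 0 were called with edgeR or DESeq2, with 1 at an unadjusted p of at most 0.05 with either. Bcl6, the most abundant, stood at −0.27 (adjusted p = 0.0941). Mki67 had 541 and 991 counts per WT library against 788 and 422 per Hnrnpf bKO library, so it differed more within a genotype than between the genotypes. Of 5 plasma cell markers, 0 were called with edgeR or DESeq2 and 0 had an unadjusted p of at most 0.05 with either, and Irf4, the most abundant, stood at −0.11. Nfkbia, the most abundant immediate early gene of the list, stood at 0.12.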
